A study of Mus musculus with 12 samples.

Results

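The 10 genes described here are effectors and regulators of the interferon response: Ifit1, Ifit2, Ifit3, Isg15, Usp18, Rsad2, Bst2, Mx1, Mx2 and Xaf1. They were taken from the gene tables by symbol. All 10 of 10 were found among 20325 genes, and all 10 passed the filter on low counts that kept 13936 genes.

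RNA was measured in mouse embryonic fibroblasts (MEFs) and in cells on day 4 of reprogramming towards induced pluripotent stem cells. The cells studied carried floxed AF10 alleles (AF10 fl/fl, where the gene is Mllt10), an OSKM cassette and rtTA. The cassette and rtTA allow doxycycline to induce the reprogramming factors. AF10 is a cofactor of the histone methyltransferase DOT1L, and SGC0946 is a DOT1L inhibitor. The groups MEF_fl and MEF_creAF10 were MEFs that had received an empty adenovirus (Ad5-CMV-Empty) or one with Cre recombinase (Ad5-CMV-Cre). The groups Day4_fl_DMSO, Day4_fl_SGC, Day4_creAF10_DMSO and Day4_creAF10_SGC had received the same viruses, then 2 µg/mL doxycycline from 2 days later, with DMSO or with 5 µM SGC0946. Each of the 6 groups had 2 libraries, with total counts of 14602536 to 22800753 per library. Every group had thus received an adenovirus, and no group without floxed alleles had received Cre. The effects of AF10 loss, of Cre and of the different virus used cannot be told apart. Day 4 cells also differed from MEFs in medium (a stem cell medium that contained LIF), in gelatin coating and in a layer of DR4 feeder MEFs. The labels do not say whether the 2 libraries of a group came from separate cultures or animals, so p-values measure the spread between these samples only.

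Type I interferons bind the receptor IFNAR1-IFNAR2, and the kinases JAK1 and TYK2 then phosphorylate STAT proteins. A complex of these with IRF9 binds the interferon-stimulated response element (ISRE) in the promoters of antiviral genes. Fibroblasts respond strongly to interferon and also keep a low level of these genes without added interferon.

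Promoter windows are shown for 5 of the genes, since they show which of these known interferon targets hold the ISRE core near the start. The windows run from 250 bases before to 50 bases after the start, 5′ to 3′ on the gene's strand, and come from RefSeq on GRCm38.p6, whereas the counts were made on mm9. Capitals mark the ISRE core, searched on both strands as GAAA, any 2 bases and GAAA again. It reads TTTC, any 2 bases and TTTC where it lies on the opposite strand. The windows are chr4:156200769-156201068 (minus strand) for Isg15, chr19:34640639-34640938 (plus strand) for Ifit1, chr19:34583279-34583578 (plus strand) for Ifit3, chr8:71537423-71537722 (minus strand) for Bst2 and chr19:34550444-34550743 (plus strand) for the first window of Ifit2.
Isg15: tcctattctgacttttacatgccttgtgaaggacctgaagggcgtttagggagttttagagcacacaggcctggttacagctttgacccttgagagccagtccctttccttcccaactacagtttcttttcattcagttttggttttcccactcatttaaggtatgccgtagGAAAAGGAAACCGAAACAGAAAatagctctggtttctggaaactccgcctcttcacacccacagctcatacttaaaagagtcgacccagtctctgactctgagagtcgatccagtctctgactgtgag
Ifit1: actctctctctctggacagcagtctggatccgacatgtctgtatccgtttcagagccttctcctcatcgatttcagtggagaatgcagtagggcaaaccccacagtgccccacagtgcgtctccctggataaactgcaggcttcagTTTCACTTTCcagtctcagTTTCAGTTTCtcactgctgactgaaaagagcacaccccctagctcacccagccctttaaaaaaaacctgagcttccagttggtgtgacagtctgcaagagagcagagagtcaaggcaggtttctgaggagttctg
Ifit3: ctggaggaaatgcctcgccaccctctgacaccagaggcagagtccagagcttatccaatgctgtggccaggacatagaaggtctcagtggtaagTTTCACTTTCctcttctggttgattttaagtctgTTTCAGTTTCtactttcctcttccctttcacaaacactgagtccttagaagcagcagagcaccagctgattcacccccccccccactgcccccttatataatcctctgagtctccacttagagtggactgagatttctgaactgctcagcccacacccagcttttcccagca
Bst2: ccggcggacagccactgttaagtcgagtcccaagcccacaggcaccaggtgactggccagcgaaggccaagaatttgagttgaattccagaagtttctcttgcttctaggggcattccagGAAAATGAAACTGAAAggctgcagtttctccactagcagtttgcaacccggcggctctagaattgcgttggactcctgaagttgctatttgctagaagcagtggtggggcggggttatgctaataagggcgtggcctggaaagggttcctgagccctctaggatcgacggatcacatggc
Ifit2: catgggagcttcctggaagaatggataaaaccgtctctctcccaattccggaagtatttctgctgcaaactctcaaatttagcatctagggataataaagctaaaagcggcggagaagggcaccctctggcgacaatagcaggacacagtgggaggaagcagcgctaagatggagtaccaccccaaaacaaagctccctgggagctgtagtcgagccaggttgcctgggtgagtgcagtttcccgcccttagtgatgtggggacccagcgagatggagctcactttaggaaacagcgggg

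Isg15 held 3 overlapping ISRE core matches, which started 78, 72 and 66 bases before the gene's start. Ifit1 held 2 (104 and 85 bases before the start), Ifit3 held 2 (156 and 122 bases) and Bst2 held 2 overlapping matches (130 and 124 bases). RefSeq windows were matched for 7 of the 10 genes. Of these 7, 5 held the ISRE core in at least 1 window, the fifth being Rsad2 with 1 match. Counted by window, 3.44% of all 32851 windows held it, and the 7 genes had 8 windows. Since these are known interferon targets, their higher share is not a result of these data. The STAT-binding GAS motif TTCNNNGAA, searched on both strands, was in 2 of the 7 (Ifit2 and Bst2, where it overlapped the first ISRE core match) and in 8.3% of all windows. Neither window of Ifit2 and not the window of Xaf1 held the ISRE core within these bases. Usp18, Mx1 and Mx2 had no entry.

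MEFs carried these transcripts at a high level. The labels' protocols name no added interferon. In deposited TPM, a level per transcript length, the sum over the 10 genes was 5728 and 6685 in the MEF_fl libraries, against 4099 and 4303 for MEF_creAF10. On day 4 the sum was 273 to 323 TPM in the 8 libraries. Bst2, which encodes tetherin, a membrane protein that holds budding virus particles at the cell surface, had the highest mean in MEF_fl (2168 TPM ± 210 SD, n = 2), followed by the ubiquitin-like modifier Isg15 (1787 TPM ± 225) and Ifit3 (1090 TPM ± 66.2). Ifit1 came next at 642 TPM, then Usp18 at 238 TPM and Xaf1 at 89.7 TPM. Mx2 (65.3 TPM), Ifit2 (51.8 TPM) and Mx1 (43.7 TPM) overlapped their neighbours in that order between replicates, and Rsad2 was lowest at 31.2 TPM. In Day4_fl_DMSO, Bst2 was again first (215 TPM ± 4.03, n = 2) and Isg15 second (24.5 TPM ± 5.71). There Ifit2 (10.9 TPM), Ifit3 (9.40 TPM), Xaf1 (7.65 TPM) and Ifit1 (7.24 TPM) each overlapped the next, and Mx1 (0.980 TPM) and Rsad2 (0.745 TPM) could not be ordered either.

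**Figure D1:**
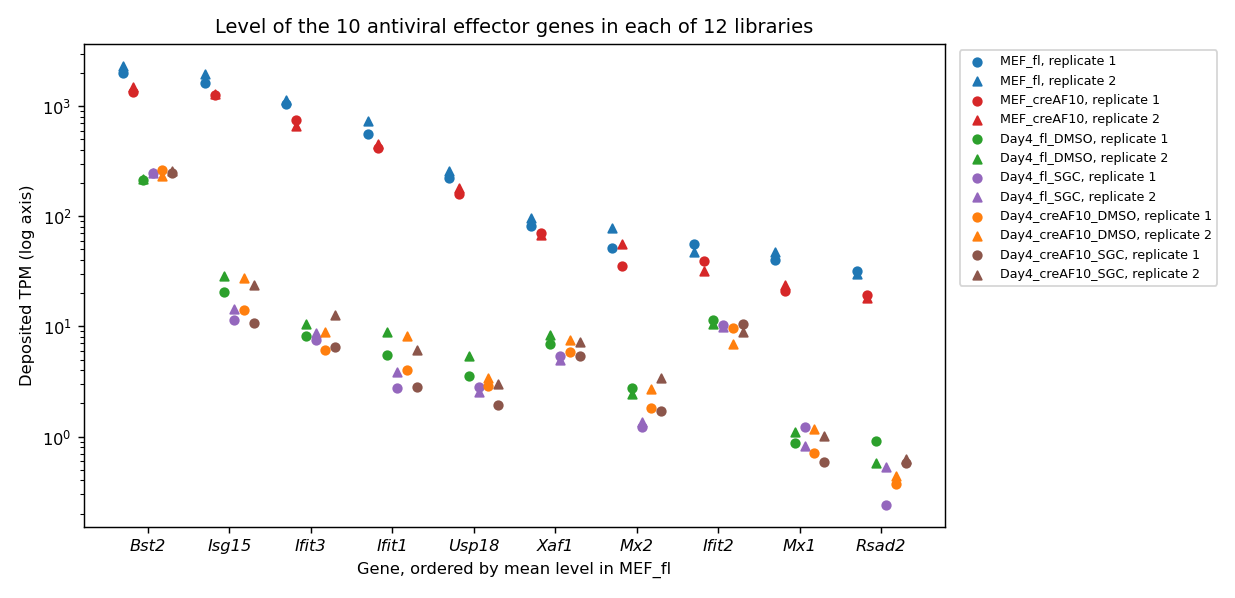
Deposited TPM (log axis) of each gene in each of the 12 libraries, coloured by group, with a separate marker for each replicate. In MEF_fl, Bst2 reached 2168 TPM on average and Rsad2 31.2 TPM, and all 8 day 4 libraries lay below all 4 MEF libraries for every gene.

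All 10 genes were lower on day 4 than in MEFs. In fl cells the median log2 change of the 10 genes was -5.35, against 0.01 for all 13936 genes tested. All 10 fell (adjusted p from 2.28e-08 to 2.17e-05 by edgeR's quasi-likelihood test with Benjamini-Hochberg adjustment), in a comparison in which 26.3% of all genes were called lower. For all 10 the day 4 libraries did not overlap the MEF libraries, as for 37.9% of all genes in this direction. In these bulk libraries, fewer expressing cells and less RNA per cell cannot be told apart.

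The IFIT genes encode RNA-binding proteins. Ifit1 binds viral RNA that lacks the cap methylation of host mRNA and blocks its translation. Ifit1 stood at 677 and 861 CPM (the count as a share of the library total after TMM scaling) in MEF_fl, 510 and 532 in MEF_creAF10, 7.18 and 11.1 in Day4_fl_DMSO, 3.60 and 4.94 in Day4_fl_SGC, 5.35 and 10.8 in Day4_creAF10_DMSO, and 3.67 and 7.74 in Day4_creAF10_SGC. The MEF and day 4 libraries were far apart, and among day 4 groups only Day4_fl_SGC lay wholly below Day4_fl_DMSO. From MEF_fl to Day4_fl_DMSO, Ifit1 fell by 6.38 ± 0.42 (SE) on the log2 scale, which left 1.19% of the MEF mean.

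Ifit3, whose human counterpart binds and stabilizes IFIT1, stood at 956 and 1009 CPM in MEF_fl, 691 and 584 in MEF_creAF10, 8.04 and 9.90 in Day4_fl_DMSO, 7.39 and 8.37 in Day4_fl_SGC, 6.14 and 8.83 in Day4_creAF10_DMSO, and 6.41 and 12.1 in Day4_creAF10_SGC. The day 4 groups overlapped one another. Ifit3 had the largest estimate of the 10 genes and fell by 6.77 ± 0.30 (a 109.5-fold lower mean). Its near copy I830012O16Rik, listed in RefSeq as Ifit3b, went from 282 and 326 CPM in MEF_fl to 2.93 and 3.67 in Day4_fl_DMSO. How reads were divided between Ifit3 and this copy is uncertain, as it is for Ifit1 and its relatives 2010002M12Rik and Gm14446, which held at most 6.92 CPM in any library.

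Ifit2, another member of the family, had the smallest change of the 10. It stood at 104 and 83.6 CPM in MEF_fl, 72.1 and 56.6 in MEF_creAF10, 22.2 and 19.6 in Day4_fl_DMSO, 20.01 and 19.1 in Day4_fl_SGC, 19.7 and 13.7 in Day4_creAF10_DMSO, and 20.8 and 17.1 in Day4_creAF10_SGC. The day 4 groups overlapped one another and kept more of the MEF level than for Ifit1 and Ifit3. The change in fl cells was -2.16 ± 0.20, and 22.3% of the MEF mean remained.

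Isg15 is attached to host and viral proteins in the way ubiquitin is. It stood at 540 and 625 CPM in MEF_fl, 416 and 413 in MEF_creAF10, 7.18 and 9.67 in Day4_fl_DMSO, 4.05 and 5.01 in Day4_fl_SGC, 5.15 and 9.83 in Day4_creAF10_DMSO, and 3.84 and 8.18 in Day4_creAF10_SGC. On day 4 only Day4_fl_SGC lay wholly below Day4_fl_DMSO. Isg15 fell by 6.10 ± 0.37 in fl cells, to 1.45% of the MEF mean.

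Usp18 removes ISG15 from its targets and restrains signalling at the interferon receptor. It stood at 178 and 201 CPM in MEF_fl, 129 and 141 in MEF_creAF10, 3.04 and 4.45 in Day4_fl_DMSO, 2.42 and 2.17 in Day4_fl_SGC, 2.57 and 2.96 in Day4_creAF10_DMSO, and 1.70 and 2.52 in Day4_creAF10_SGC. The other 3 day 4 groups all lay below Day4_fl_DMSO. Usp18 fell by 5.64 ± 0.19 in fl cells.

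Rsad2, also called viperin, makes a nucleotide analogue that stops viral polymerases. It stood at 56.6 and 51.4 CPM in MEF_fl and at 34.2 and 30.6 in MEF_creAF10. On day 4 it was near the limit of the depth, at 1.72 and 1.009 CPM in Day4_fl_DMSO, 0.458 and 0.988 in Day4_fl_SGC, 0.726 and 0.838 in Day4_creAF10_DMSO, and 1.10 and 1.13 in Day4_creAF10_SGC, with 6.97 to 30 counts per library. Day4_fl_SGC and Day4_creAF10_DMSO lay below Day4_fl_DMSO there, by a few counts. The change in fl cells was -5.32 ± 0.26.

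Bst2 kept the highest level on day 4. It stood at 679 and 754 CPM in MEF_fl, 452 and 486 in MEF_creAF10, 75.5 and 74.9 in Day4_fl_DMSO, 89.2 and 87.2 in Day4_fl_SGC, 96.7 and 84.0 in Day4_creAF10_DMSO, and 89.4 and 89.5 in Day4_creAF10_SGC. Day4_fl_DMSO was the lowest of the 4 day 4 groups and overlapped none of them. The change in fl cells was -3.25 ± 0.10, a 9.53-fold lower mean.

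Mx1 and Mx2 encode dynamin-like GTPases, nuclear and cytoplasmic in the mouse, that block viruses after entry. Mx1 stood at 51.2 and 59.7 CPM in MEF_fl, 26.9 and 29.1 in MEF_creAF10 and 0.822 to 1.70 in the 8 day 4 libraries, where the groups overlapped. Mx2 stood at 57.4 and 85.3 CPM in MEF_fl, 39.2 and 59.5 in MEF_creAF10, 3.22 and 2.80 in Day4_fl_DMSO, 1.44 and 1.58 in Day4_fl_SGC, 2.24 and 3.24 in Day4_creAF10_DMSO, and 2.03 and 3.97 in Day4_creAF10_SGC. For Mx2 only Day4_fl_SGC lay wholly below Day4_fl_DMSO. Both genes fell in fl cells, with log2 changes of -5.38 ± 0.26 for Mx1 and -4.57 ± 0.36 for Mx2.

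Xaf1 encodes a partner of the apoptosis inhibitor XIAP. It stood at 98.9 and 113 CPM in MEF_fl, 84.3 and 78.3 in MEF_creAF10, 8.90 and 10.2 in Day4_fl_DMSO, 6.80 and 6.26 in Day4_fl_SGC, 7.79 and 9.72 in Day4_creAF10_DMSO, and 7.02 and 9.002 in Day4_creAF10_SGC. On day 4 only Day4_fl_SGC lay wholly below Day4_fl_DMSO. The change of Xaf1 in fl cells, -3.47 ± 0.15, was close to that of Bst2.

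AF10-deleted cells showed the same direction. From MEF_creAF10 to Day4_creAF10_DMSO all 10 genes fell, with a median log2 change of -4.88 against 0.02 for all genes (adjusted p from 8.94e-08 to 4.03e-05 by edgeR's quasi-likelihood test with Benjamini-Hochberg adjustment; 27.5% of all genes were called lower and 37.7% were lower without overlap). The largest change was that of Ifit3 (-6.40 ± 0.30) and the smallest that of Ifit2 (-1.95 ± 0.20), with Bst2 next (-2.38 ± 0.09). DESeq2 also called all 10 in each genotype, where it called 25.5% of all genes lower with AF10 and 26.9% after its deletion.

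Markers of other cell types moved between MEFs and day 4 as well. The 12 macrophage and blood markers summed to 11.5 to 27.4 TPM in MEFs and to 58.9 to 94.5 TPM on day 4, with 5 of 10 tested higher and 1 lower in fl cells, where 25.7% of all genes were called higher. Laptm5 alone held 29.6 to 49.4 TPM of the day 4 sum, while the pan-leukocyte marker Ptprc was at 0.20 TPM or less in every library and Aif1 was listed at 0 in all 4 MEF libraries. Of the 10 macrophage and blood markers tested in fl cells, 8 had positive estimates and 2 negative, so the rise was not confined to Laptm5. The 6 endothelial markers went from 8.90 to 9.75 TPM in MEFs to 35.1 to 54.2 TPM on day 4. Of the 3 tested, 1 was called higher and 1 lower in fl cells, against 25.7% and 26.3% of all genes. Pecam1 and Cdh5 were at 0.43 TPM or less in every library, so the rise lay in other genes of the list. The 9 fibroblast markers summed to 23034 to 30263 TPM in MEFs and to 12378 to 14140 TPM on day 4. The 8 plasmacytoid dendritic and lymphoid markers stayed at 0.430 to 2.64 TPM throughout, with Cd3e listed at 0 in every library. The part of these cell types, of medium, feeders, doxycycline and time since the adenovirus in the change of the 10 genes was not tested.

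The targeted gene was lower in every AF10-deleted library, though far from absent. Mllt10 in MEF_creAF10 was 82.1% and 75.9% of MEF_fl in replicates 1 and 2, 72.1% and 75.5% on day 4 with DMSO, then 76.96% and 72.8% with SGC0946. In a fit that paired the replicate numbers within MEFs and within day 4, called the paired fit here, its adjusted p was 0.0322, 0.00100 and 0.0178 in the 3 settings (edgeR quasi-likelihood test, Benjamini-Hochberg). Without the pairing it was 0.704, 0.537 and 1.00 by the same test. The files count Mllt10 as a whole, so the deleted stretch was not measured on its own. Whether the day 4 libraries also held RNA of the feeder MEFs was not tested.

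In MEFs, all 10 genes had lower means in AF10-deleted cells, and each was lower in both replicate pairs. The median log2 change was -0.55, against -0.004 for all genes. In the fit without pairing 0 of the 10 were called, as were 0.0% of all genes, although 7 of the 10 and 300 of all genes had an unadjusted p under 0.05 (edgeR quasi-likelihood test). DESeq2 called 2, Bst2 and Mx1, and 0.115% of all genes lower. In the paired fit all 10 fell, where 0.84% of all genes were called lower (adjusted p from 3.48e-06 to 0.0127 by edgeR's quasi-likelihood test with the pairing). With 1 replicate block over both stages instead, 2 of the 10 fell, Bst2 and Mx1 (adjusted p 0.0453 for each by edgeR; 0.0431% of all genes). The call for the other 8 therefore depended on the pairing within stage.

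Mx1 changed most, with MEF_creAF10 at 52.5% and 48.7% of MEF_fl in the 2 pairs (-0.99 ± 0.11 in the paired fit). Rsad2 stood at 60.5% and 59.6% (-0.74 ± 0.11) and Bst2 at 66.6% and 64.4% (-0.61 ± 0.07). For Mx1, Rsad2 and Bst2 the 2 pairs gave nearly the same ratio. Ifit3 stood at 72.2% and 57.8% (-0.63 ± 0.09), Ifit1 at 75.3% and 61.8% (-0.55 ± 0.08) and Isg15 at 77.1% and 66.1% (-0.49 ± 0.08), each lower in pair 2. Ifit2 (-0.54 ± 0.08), Usp18 (-0.49 ± 0.07) and Mx2 (-0.53 ± 0.10) lay between 67.7% and 72.2% in both pairs, and Xaf1 changed least (-0.38 ± 0.08). For 9 of the 10 genes both AF10-deleted libraries were below both fl libraries, as for 10.8% of all genes; Mx2 overlapped, with replicate 2 higher in both groups. In the fit without pairing, the estimate for Mx2 was -0.21 without replicate 2 of MEF_fl and -0.86 without replicate 2 of MEF_creAF10.

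**Figure D2:**
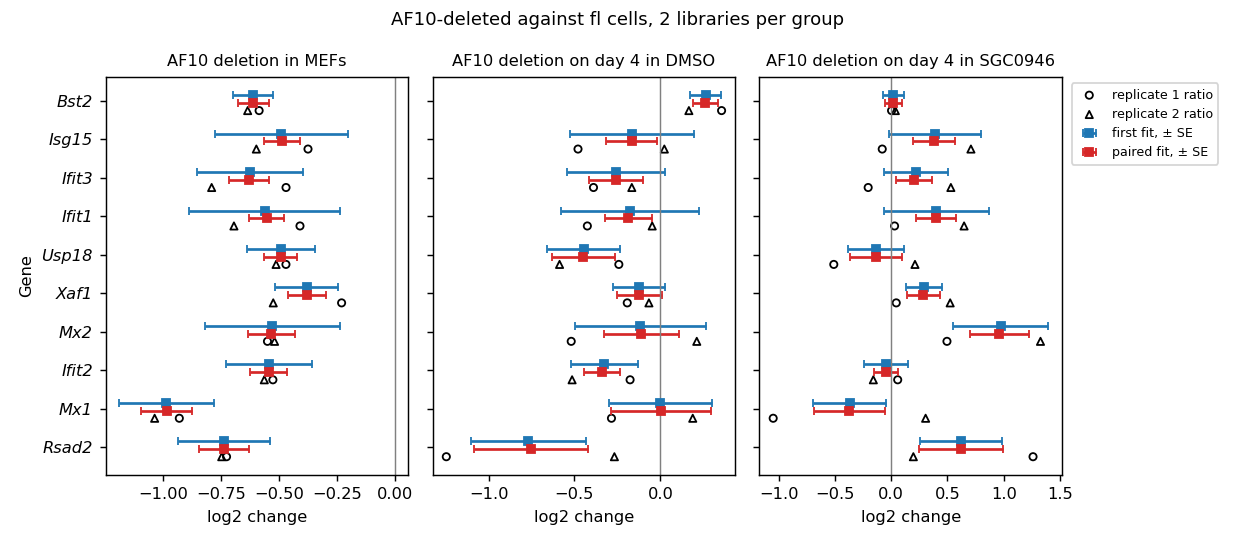
Log2 change on AF10 deletion in MEFs and for both day 4 treatments, with squares and bars for the estimate ± SE of each fit, and open symbols for the ratio in each replicate pair. In MEFs every gene lies left of 0, from -0.99 for Mx1 to -0.38 for Xaf1 in the paired fit, while on day 4 the values lie on both sides.

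On day 4 in DMSO, the median log2 change on AF10 deletion was -0.17, against -0.55 in MEFs, in the fit without pairing. Of the 10 estimates 8 were negative, with Bst2 positive and Mx1 at 0.00. Not every estimate was smaller than in MEFs: Rsad2 was at -0.77 ± 0.33 on day 4 and -0.74 ± 0.20 in MEFs. In the fit without pairing 0 of the 10 were called, as were 0.0% of all genes in either direction; 2 of the 10 and 988 of all genes had an unadjusted p under 0.05 by edgeR. DESeq2 called 0 of the 10, and 0.0359% of all genes higher and 0.0144% lower. In the paired fit Ifit2 fell by 0.34 ± 0.10 (adjusted p 0.0442, edgeR quasi-likelihood test, Benjamini-Hochberg), and Bst2 rose by 0.26 ± 0.07 (adjusted p 0.0295), where 3.37% of all genes were called in each direction. In the fit without pairing, the estimate for Ifit2 was -0.61 without replicate 1 of Day4_creAF10_DMSO and -0.089 without replicate 2, and that for Bst2 was 0.16 without replicate 1. With 10 genes, 1 call in each direction is little to set against that share. Ifit1, Ifit3 and Isg15 overlapped between the genotypes, and Rsad2 had replicate ratios of 42.1% and 83.1% from counts of 11 to 30.

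With SGC0946 present, AF10 deletion gave 0 calls among the 10 genes in either fit, where 0.0% of all genes were called without pairing and 0.0718% higher and 0.1% lower with it. The unadjusted p was under 0.05 for 1 of the 10 and 251 of all genes without pairing (edgeR). With pairing these were 2 of the 10 and 1081 of all genes. DESeq2 called 0 of the 10, and 0.0144% of all genes higher and 0.0% lower. The median log2 change was 0.26 without pairing. Mx2 had the largest estimate, at 0.97 ± 0.43 without pairing and 0.96 ± 0.26 with it. Its ratios were 141% and 251% in the 2 pairs, from counts of 22 to 63.1. Bst2 was at 0.02 ± 0.09 without pairing, with 100.3% and 103% in the pairs.

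The change on AF10 deletion differed between MEFs and day 4 in DMSO for Bst2. Its log2 change was -0.61 in MEFs and 0.26 on day 4, a difference of 0.87 ± 0.10 in the paired fit (adjusted p 1.81e-05, edgeR quasi-likelihood test, Benjamini-Hochberg; 0.933% of all genes were called in this direction). DESeq2 also called it, with 0.0144% of all genes, and the fit without pairing gave an adjusted p of 0.588 by edgeR, where 0.0% of all genes were called; with 1 block over both stages it was 0.172. For the other 9 genes the difference was not called in either fit. It was positive for 9 of the 10, with Mx1 at 0.99 ± 0.32 and adjusted p 0.129 in the paired edgeR fit, and close to 0 for Rsad2 (-0.02 ± 0.27).

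With SGC0946 on day 4 in fl cells, Ifit1, Isg15, Usp18, Mx2 and Xaf1 were called lower and Bst2 higher in the paired fit. The estimates of the 10 genes had a median of -0.63 log2, against -0.01 for all genes, with 8 of 10 negative. In the fit without pairing 0 of the 10 were called, where 0.883% of all genes were called higher and 0.23% lower. There 7 of the 10 and 1856 of all 13936 genes had an unadjusted p under 0.05 by edgeR. DESeq2 called 0 of the 10, and 1.59% of all genes higher and 0.61% lower. In the paired fit 5 fell and 1 rose, where 7.1% of all genes were called lower and 10.6% higher. With 1 block over both stages 2 fell, Usp18 and Xaf1, where 1.77% of all genes did (adjusted p 0.0433 and 0.0499 by edgeR).

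Ifit1 fell by 1.09 ± 0.16 in the paired fit, to 50.1% and 44.4% of DMSO in the 2 pairs (adjusted p 1.62e-05, edgeR quasi-likelihood test, Benjamini-Hochberg). Isg15 fell by 0.89 ± 0.17 (56.5% and 51.8%; adjusted p 0.000567 by the same edgeR test). Mx2 fell by 0.97 ± 0.25 (44.7% and 56.5%), Usp18 by 0.71 ± 0.20 (79.5% and 48.9%) and Xaf1 by 0.54 ± 0.14 (76.4% and 61.5%). Without replicate 2 of Day4_fl_DMSO the estimate for Usp18 was -0.41 in the fit without pairing. Bst2 rose by 0.23 ± 0.07, to 118% and 117% (adjusted p 0.0290, edgeR). Ifit2 and Ifit3, relatives of Ifit1, had estimates of -0.10 ± 0.10 and -0.18 ± 0.16 and were not called. Rsad2 (-0.88 ± 0.35) was not called either, with ratios of 26.6% and 98.0% from 6.97 to 30 counts. For 6 genes both SGC0946 libraries were below both DMSO libraries, as for 24.2% of all genes.

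In AF10-deleted cells, SGC0946 gave 0 calls without pairing, where 0.00718% of all genes were called higher and 0.0% lower. There 0 of the 10 and 955 of all genes had an unadjusted p under 0.05 by edgeR. DESeq2 also called 0 of the 10, and 0.222% of all genes higher and 0.108% lower. In the paired fit only Ifit1 was called, falling by 0.51 ± 0.15 (adjusted p 0.0407, edgeR quasi-likelihood test, Benjamini-Hochberg; 2.47% of all genes were called lower). Ifit1 stood at 68.7% and 71.8% of DMSO in the 2 pairs, but its groups overlapped, with replicate 2 higher in both. In the fit without pairing, leaving out replicate 2 of Day4_creAF10_DMSO turned its estimate to 0.077, and leaving out replicate 2 of Day4_creAF10_SGC gave -1.15. Isg15 was at -0.34 ± 0.16 and Bst2 at -0.01 ± 0.07 in the paired fit.

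Whether SGC0946 acted differently with and without AF10 was tested directly. The interaction was called for 0 of the 10 genes in both fits (0.0% of all genes without pairing, 0.0718% higher and 0.323% lower with it). By edgeR without pairing, 1 of the 10 and 303 of all genes had an unadjusted p under 0.05. With pairing these were 6 of the 10 and 1445 of all genes. DESeq2 called 0 of the 10, and 0.00718% of all genes in each direction. Mx2 came closest, at 1.07 ± 0.34 (adjusted p 0.183, paired edgeR fit). Rsad2 was at 1.37 ± 0.50 (adjusted p 0.273). The effects on Isg15, Usp18, Mx2, Xaf1 and Bst2, called in fl cells, were thus not shown to differ with AF10. The SGC0946 comparisons share their DMSO libraries with the AF10 comparison on day 4 in DMSO.

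**Figure D3:**
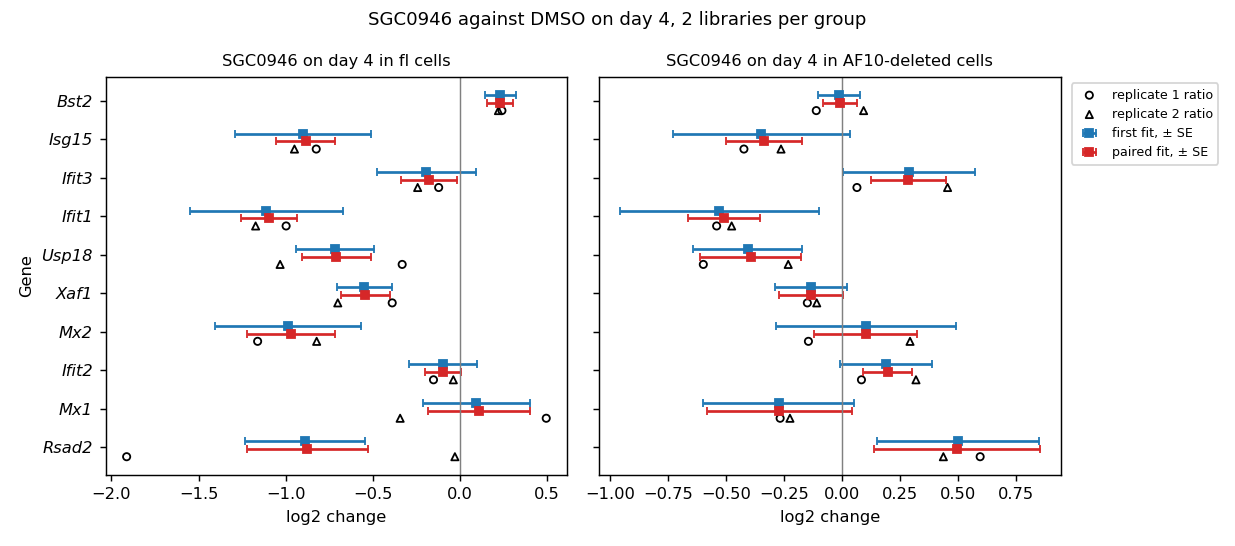
Log2 change with SGC0946 on day 4 in each genotype, with squares and bars for the estimate ± SE of each fit and open symbols for the ratio in each replicate pair. Ifit1 lies left of 0 in both panels (-1.09 and -0.51 in the paired fit), and Bst2 lies right of 0 in fl cells (0.23) and at 0 in AF10-deleted cells (-0.01).

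The 2 replicate numbers differed in a recurring way. On day 4, replicate 2 was higher than replicate 1 in all 4 groups for Ifit1 (by 1.37 to 2.11 times), Ifit3 (1.13 to 1.88 times) and Isg15 (1.24 to 2.13 times). Ifit2 went the other way, at 0.698 to 0.955 times in the 4 day 4 groups and 0.785 and 0.805 times in the MEF groups. Bst2 differed less, from 0.869 to 1.00 times on day 4.

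After each gene was centred within its stage, members tracked the mean of the other members to different degrees over the 12 libraries. Pearson's r was 0.91 for Xaf1, 0.87 for Isg15, 0.84 for Ifit1 and 0.80 for Ifit3, but 0.27 for Bst2 and 0.11 for Ifit2. These are descriptions, since the libraries share groups and sources. Outside the members and the pathway lists, the genes most like their mean by this measure were Ttc17 (r = 0.94), Pdzd2 (0.93), Ttc23 (0.93), 9230105E10Rik (0.92), Samd9l (0.92) and Trim12a (0.90), then Ubn1 (0.89), Gm10767 (0.88), Ddx24 (0.87) and I830012O16Rik (0.87). Of these 10, Samd9l, a gene induced by interferon, fell from 206 to 155 CPM on AF10 deletion in MEFs (-0.41 ± 0.08, adjusted p 0.00245, paired edgeR fit). Trim12a (-0.49 ± 0.09), 9230105E10Rik (-0.36 ± 0.07) and I830012O16Rik (-0.52 ± 0.10) were also called there, and the other 6 were not. That fit called 0.84% of all genes lower. These 10 genes were picked for tracking the members over the same libraries, the AF10-deleted MEFs included. A fall there was thus partly built into the choice, and these calls are descriptions only.

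The upstream parts of the pathway were read from lists of known genes. Of 7 type I interferon genes, 2 had 0 counts in every library, and all 7 together had 0 to 5 counts per library. Ifnb1 had 4 and 1 counts in MEF_fl and 0 in both MEF_creAF10 libraries, too few to compare. Libraries selected for polyadenylated RNA at this depth could not show whether interferon RNA differed.

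Receptors and signalling genes fell less uniformly than the effectors, in counts and medians. Of 5 receptor genes tested, 2 fell from MEF_fl to Day4_fl_DMSO in the fit without pairing, the interferon gamma receptor chains Ifngr2 (-1.49 ± 0.09) and Ifngr1 (-0.38 ± 0.12). That fit called 26.3% of all genes lower and 25.7% higher. The type I receptor chain Ifnar2 was at -0.30 ± 0.12 with an adjusted p of 0.0574 (edgeR quasi-likelihood test, Benjamini-Hochberg). In the paired fit 4 of the 5 fell, with both type I receptor chains among them: Ifnar2 by 0.30 ± 0.09 (adjusted p 0.00362, edgeR) and Ifnar1 by 0.18 ± 0.07 (adjusted p 0.0174). Of 16 JAK, STAT and IRF genes, 7 fell and 3 rose in the fit without pairing, with a median of -0.23. The share that rose was not above that of all genes. Among those that fell were Stat2, by 3.38 ± 0.09, and its partner Irf9, by 2.07 ± 0.08. The paired fit called 8 of the 16 lower and 5 higher, where 34.3% of all genes were called lower and 33.9% higher.

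Among 13 nucleic acid sensors and adaptors, 6 fell and 2 rose in the fit without pairing, where 26.3% of all genes fell and 25.7% rose. Those that fell most firmly were the RIG-I-like receptors Dhx58 (-4.58 ± 0.16) and Ifih1 (-3.41 ± 0.13) and the double-stranded RNA receptor Tlr3 (-3.30 ± 0.15). All 6 genes of ISG15 conjugation fell, of which Isg15 and Usp18 are members described above and Trim25 is also counted with the sensors. The enzymes Uba7 (the activating enzyme, -2.68 ± 0.10), Ube2l6 (the conjugating enzyme, -2.85 ± 0.13) and Herc6 (a ligase, -3.21 ± 0.18) had smaller estimates than Isg15 itself (-6.10), a difference that was not tested. Of 31 other interferon-induced effectors, 28 fell, with a median of -2.43, among them the GTPase Igtp (-4.31 ± 0.13), the synthetase Oas1a (-3.76 ± 0.13) and the RNA-editing enzyme Adar (-1.999 ± 0.075). The 2 that rose, named after their values were seen, were the membrane proteins Ifitm1 (4.66 ± 0.29) and Ifitm2 (0.59 ± 0.09). Ifitm1 went from 7.59 and 4.37 CPM in MEF_fl to 174 and 130 in Day4_fl_DMSO. Of 10 inflammatory genes of the NF-kB response, 4 rose and 1 fell, where 25.7% of all genes were called higher and 26.3% lower.

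The paired fit called more genes of these lists between MEF_fl and Day4_fl_DMSO, as it did of all genes, of which it called 33.9% higher and 34.3% lower. It called 8 of the 10 NF-kB response genes higher and 1 lower, 8 of the 13 sensors lower and 3 higher, and 29 of the 31 other effectors lower and 2 higher. Of the 10 macrophage and blood markers tested, 7 were higher and 1 lower. The 6 conjugation genes were lower in both fits.

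In MEFs, AF10 deletion touched the same lists in the paired fit, while 0 genes of these lists were called without pairing, as were 0.0% of all genes. The paired fit called 23 of the 31 other effectors lower, 5 of the 6 ISG15 conjugation genes (Isg15 and Usp18 among them), 5 of the 13 sensors, 2 of the 16 signalling genes and 0 of the 5 receptors. It called 0.84% of all genes lower. Gbp2 (a guanylate-binding GTPase, -1.03 ± 0.09), Oas1a (-0.96 ± 0.09) and Iigp1 (-0.60 ± 0.07) had the lowest p among the other effectors. Beside Isg15 and Usp18, the conjugation genes called were Ube2l6 (-0.65 ± 0.08), Herc6 (-0.75 ± 0.10) and Uba7 (-0.48 ± 0.08). Among sensors the lowest p values were those of Ifih1 (-0.57 ± 0.09), Tlr3 (-0.65 ± 0.10) and Ddx58 (-0.41 ± 0.07). Stat2 fell by 0.33 ± 0.07. Irf7, the factor that amplifies interferon production, was at -0.77 ± 0.15 with an adjusted p of 0.113 (edgeR quasi-likelihood test, Benjamini-Hochberg). Of the 10 NF-kB response genes, 1 rose and 0 fell, where 0.122% of all genes were called higher. The 12 macrophage and blood markers had 1 of 10 tested lower in that fit, and their sum was 23.2 and 13.6 TPM in MEF_fl and 27.4 and 11.5 TPM in MEF_creAF10.

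**Figure D4:**
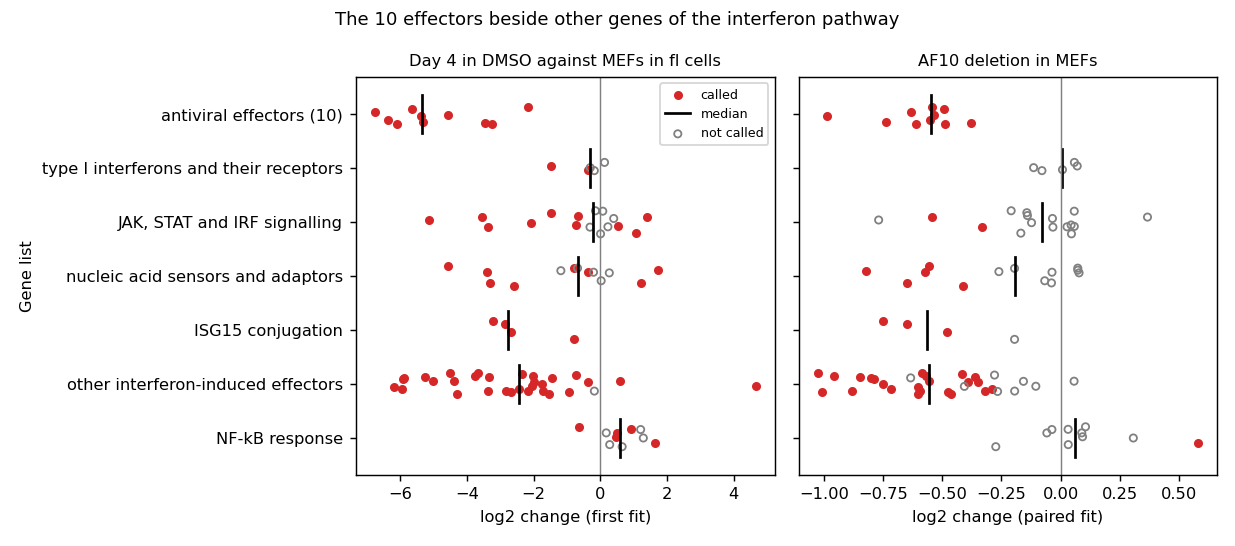
Log2 change of each gene in the lists of the interferon pathway, with red points for genes called and open points for genes not called, and a bar at each list's median. On day 4 against MEFs (fit without pairing) the 10 effectors have a median of -5.35 and the other effectors -2.43, and on AF10 deletion in MEFs (paired fit) -0.55 and -0.56; ISG15 conjugation is drawn without Isg15 and Usp18.

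With SGC0946 on day 4 in fl cells the lists moved in different directions in the paired fit, where 7.1% of all genes were called lower and 10.6% higher. Of the 6 conjugation genes 3 fell and 0 rose, which were Isg15, Usp18 and Trim25 (-0.33 ± 0.08, named after its value was seen). Of the 13 sensors, Trim25 included, 2 fell and 2 rose, and of the 5 receptors 2 rose and 0 fell. Of the 16 signalling genes 3 fell, among them Stat2 (-0.32 ± 0.08) and Irf9 (-0.38 ± 0.08), and 3 rose, which were Jak2, Socs3 and Ptpn6. Of the 31 other effectors, 6 fell and 4 rose, the latter being Ifitm1 (0.71 ± 0.09), Psmb8 (0.93 ± 0.18), Isg20 (0.70 ± 0.22) and Gbp2 (0.55 ± 0.16), named after their values were seen. Of the 10 NF-kB response genes, 7 rose and 0 fell. Without pairing, 1 NF-kB gene was called, and 0 in the other 5 lists.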

How the data were processed

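Libraries came from polyadenylated RNA (TruSeq RNA V2 kit), per the labels' protocols. The authors' files hold RSEM expected counts and TPM per gene. RSEM, Bowtie and the build mm9 are named in the submitters' processing notes, with no versions; strand is not stated, so Usp18 and overlapping antisense RNA cannot be told apart. For the tests, the deposited expected counts were rounded, and TPM was used as deposited, for levels only. In 10 of the 12 files, 25 gene names each had been turned into dates and were matched by transcript ID.

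Tests used edgeR 4.0.16 (R 4.3.3): TMM scaling, filterByExpr (13936 genes kept), a robust quasi-likelihood fit of all 12 libraries with a term per group, and Benjamini-Hochberg adjustment over all genes kept, called under 0.05. The spread behind it rests on 6 residual degrees of freedom.

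Replicate numbers were checked for pairing before calls were compared. Deviations of same-numbered libraries from their group means correlated in all 15 pairs of groups (r from 0.286 to 0.737), at 0.413 or more within a stage and 0.340 or less across stages. Same-numbered libraries were therefore treated as pairs, and the paired fit adds the replicate within MEFs and within day 4. The labels do not say what the numbers stand for, so this pairing was inferred from the same libraries that were tested. It has 4 residual degrees of freedom of its own, and the estimate shared across genes adds 22.4.

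Alternatives were 1 block over both stages, DESeq2 1.42.0, RLE size factors, no filter, only the groups compared, and each library left out. Scripts were tested on simulated data. ± is an SE for log2 changes and an SD over 2 libraries for levels. The text names all 10 members; from each pathway list, leaving out the members, up to 3 genes with the lowest p in day 4 against MEFs and up to 3 in the paired MEF comparison; and the 10 genes whose stage-centred log2 CPM correlates best with the members' mean. The list genes Mb21d1 and Ifi27 were not analysed here, and some genes of the lists are counted but not reported by name. The members and lists were chosen with earlier results of these data known.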

Additional observations from a re-analysis of the deposited data

Results flagged for a closer look

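For Bst2, the effect of AF10 deletion differed between day 4 in DMSO and MEFs by 0.87 ± 0.10 on the log2 scale in the paired fit (adjusted p 1.81e-05, edgeR quasi-likelihood test with Benjamini-Hochberg adjustment). It was lower in AF10-deleted MEFs in 2 of 2 pairs, at 66.6% and 64.4% of fl, and higher on day 4 in 2 of 2 pairs, at 128% and 112%. The adjusted p was 0.588 in the edgeR fit without pairing and 0.172 with 1 replicate block over both stages, so the call was lost in both, while unpaired DESeq2 called it. Over the leave-one-out fits without pairing the difference ranged from 0.77 to 0.97.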

How the results depend on the processing

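Both comparisons of day 4 with MEFs gave 10 lower calls of 10 under every alternative run. The other counts depended on the pairing or the tool, except those for AF10 deletion in SGC0946 and for the interaction, which were 0 under every alternative run. With the replicate block within each stage, MEFs gave 10 genes lower on AF10 deletion, day 4 in DMSO 1 higher and 1 lower, SGC0946 5 lower and 1 higher in fl cells and 1 lower in AF10-deleted cells, and the difference between stages 1 higher, where the fit without a block gave 0 for each. With 1 replicate block over both stages, 2 genes were lower on AF10 deletion in MEFs and 2 with SGC0946 in fl cells. DESeq2 gave 2 lower in MEFs and 1 higher for the difference between stages. RLE size factors, no filter, only the groups compared and each left-out library moved no count. Leaving out a library used the spread shared by all groups, so a lone library was assumed to vary like the others. Without the filter, Mx1 on day 4 in DMSO went from 0.00 to -0.0089. Leave-one-out fits without pairing turned the sign of log2 changes that this fit did not call, with these lowest and highest values; of these, the paired fit called Ifit1 with SGC0946 in AF10-deleted cells. For AF10 deletion on day 4 in DMSO these were Mx1 -0.41 to 0.29, Ifit1 -0.79 to 0.22, Isg15 -0.72 to 0.21, Mx2 -0.42 to 0.11, Xaf1 -0.30 to 0.023. For AF10 deletion in SGC0946 these were Usp18 -0.43 to 0.13, Ifit1 -0.22 to 0.86, Ifit2 -0.20 to 0.091, Ifit3 -0.30 to 0.61, Isg15 -0.24 to 0.85. For SGC0946 in fl cells these were Mx1 -0.24 to 0.36. For SGC0946 in AF10-deleted cells these were Bst2 -0.11 to 0.090, Mx2 -0.44 to 0.52, Ifit1 -1.15 to 0.077, Ifit2 -0.051 to 0.47, Isg15 -0.98 to 0.21, Mx1 -0.68 to 0.14, Xaf1 -0.32 to 0.036, Ifit3 -0.23 to 0.68. For the difference of the AF10 effect between day 4 and MEFs these were Usp18 -0.19 to 0.34, Rsad2 -0.40 to 0.38, Ifit2 -0.063 to 0.46, Ifit1 -0.23 to 0.78, Isg15 -0.23 to 0.70. For the interaction of AF10 deletion and SGC0946 these were Mx1 -0.77 to 0.045, Ifit1 -0.036 to 1.19, Ifit3 -0.037 to 0.88, Isg15 -0.075 to 1.11. The cause of these changes was not tested. Rsad2, Mx1, Mx2 and Usp18 had under 100 counts in every day 4 library, which limits what their day 4 comparisons can show.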
